A study of Mus musculus with 12 samples.

Results

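Hair shaft keratins are the hard keratins from which the hair fibre is built, and 10 of their genes were listed for mouse dorsal skin: Krt31, Krt32, Krt33a, Krt33b, Krt34, Krt35, Krt81, Krt82, Krt85 and Krt86. The list is one of gene names, with no threshold on a measured value. It was chosen with earlier results of these data known, so its counts beside the shares over all genes are a description. A row naming that gene alone was found for 9 of the 10, among 22180 genes with such a row. Krt85 was not analysed here.

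The data were expression arrays of pooled skin from C57Bl/6 mice, 1 array per pool, with males and females mixed and 4 or 5 mice in a pool. There were 6 groups, each with 1 pool at 10 weeks and 1 at 14 weeks of age: IL-17C+KO involved, IL-17C+KO uninvolved, IL-17C+ involved, IL-17C+ uninvolved, IL-6KO and WT. IL-17C+ stands for mice with a transgene that overexpresses the cytokine IL-17C, IL-6KO for mice without the cytokine IL-6, and IL-17C+KO for the transgene on the IL-6KO background. Involved and uninvolved are areas of dorsal skin of the transgenic mice, and comparable regions were taken from IL-6KO and WT mice. In a further label field the IL-6KO pools read involved and the WT pools uninvolved. The labels state neither the promoter of the transgene nor whether both areas came from the same mice. The 2 ages are the only replicates of a group, so the spread within a group holds both age and pool, and every p-value rests on 12 pools alone.

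A hair keratin filament is built from pairs of 1 type I and 1 type II keratin, laid down as matrix cells of a growing follicle move up and harden into the shaft. The filaments are then cross-linked to keratin-associated proteins. Hair growth is cyclic: follicles make shaft keratins in the growth phase, anagen, and not in the resting phase, telogen. In human follicles, Krt35 and Krt85 come on early in the matrix and lower shaft, Krt32 and Krt82 belong to the cuticle, and Krt31, Krt33a, Krt33b, Krt34, Krt81 and Krt86 belong to the cortex. Type I hair keratins are Krt31 to Krt35 of this list and type II are Krt81 to Krt86.

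The genes lie in 2 clusters. In RefSeq, Krt33a, Krt33b, Krt34, Krt31, Krt32 and Krt35 follow in that order on chromosome 11, and Krt81, Krt86 and Krt82 in that order on chromosome 15. Promoter windows in RefSeq (GRCm38.p6) matched 5 of the 10 genes. They are shown because the levels of these genes varied together across the arrays. Each is the 250 bases before the start of the gene, read 5′ to 3′ on the strand of the gene, which is the minus strand for all 5. The windows are chr11:100050552-100050801 for Krt31, chr11:100088270-100088519 for Krt32, chr11:100029869-100030118 for Krt33b, chr11:100041555-100041804 for Krt34 and chr15:101550660-101550909 for Krt82. Capitals mark 2 motifs, TATAAA (the core of the TATA box) and CTTTGA (a core of Lef1 and Tcf binding sites), which were searched on both strands and do not overlap each other here.
Krt31: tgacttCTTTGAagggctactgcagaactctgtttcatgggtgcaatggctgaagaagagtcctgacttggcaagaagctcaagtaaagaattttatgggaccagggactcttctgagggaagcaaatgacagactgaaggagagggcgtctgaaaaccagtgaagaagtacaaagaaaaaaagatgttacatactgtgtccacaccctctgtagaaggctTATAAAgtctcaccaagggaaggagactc
Krt32: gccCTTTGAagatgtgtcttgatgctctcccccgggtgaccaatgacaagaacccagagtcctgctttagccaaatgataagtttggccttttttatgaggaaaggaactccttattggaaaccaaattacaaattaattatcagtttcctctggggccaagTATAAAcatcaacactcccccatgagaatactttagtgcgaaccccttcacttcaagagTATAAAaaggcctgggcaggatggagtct
Krt33b: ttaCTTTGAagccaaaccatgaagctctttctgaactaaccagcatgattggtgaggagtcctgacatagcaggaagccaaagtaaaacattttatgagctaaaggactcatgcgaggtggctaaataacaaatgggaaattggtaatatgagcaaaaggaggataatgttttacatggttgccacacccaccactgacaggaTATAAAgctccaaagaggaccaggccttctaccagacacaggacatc
Krt34: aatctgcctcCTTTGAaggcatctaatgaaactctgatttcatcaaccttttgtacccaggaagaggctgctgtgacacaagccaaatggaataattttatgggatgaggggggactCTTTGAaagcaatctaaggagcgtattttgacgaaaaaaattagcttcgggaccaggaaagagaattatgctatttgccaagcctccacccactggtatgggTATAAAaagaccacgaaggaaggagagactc
Krt82: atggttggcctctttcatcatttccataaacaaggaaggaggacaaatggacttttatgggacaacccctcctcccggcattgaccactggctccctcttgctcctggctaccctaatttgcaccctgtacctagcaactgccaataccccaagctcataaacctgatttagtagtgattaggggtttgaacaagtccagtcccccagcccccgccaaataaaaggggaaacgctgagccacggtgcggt
Each motif was found in 4 of the 5 windows, and neither was found in that of Krt82. TATAAA began 29 bases before the start in Krt31, 31 in Krt34, 47 in Krt33b, and both 29 and 88 in Krt32. CTTTGA began 240 to 247 bases before the start in these 4 genes, and Krt34 held a second copy at 133 bases. All matches were on the strand of the gene. Of 32851 RefSeq promoter windows of this length, 12.4% held TATAAA and 13.8% held CTTTGA. A match is only a match of letters.

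The array values are log2 of the deposited intensities, and the median gene lay between 4.51 and 4.62 on every array. Of the skin check list, Krt14, Krt1, Krt10, Col1a1 and Col3a1 were above the array median on all 12 arrays, and Krt5 was not analysed here. Several arrays seemed to go against their labels. Il17c stood at 6.30 and 6.17 (10 weeks, then 14 weeks) in the pools labelled IL-6KO and at 4.74 and 4.16 in those labelled IL-17C+ uninvolved, against 4.67 and 4.96 in the pools labelled WT. Values that go with the labels were 5.81 and 6.63 in the pools labelled IL-17C+ involved and 6.16 and 6.25 in those labelled IL-17C+KO uninvolved. Il6 was highest in the pools labelled IL-17C+KO uninvolved, at 4.93 and 5.00, against 2.92 and 2.88 in the pools labelled WT. In those labelled IL-17C+KO involved, Il6 was 3.14 and 4.64. Il6 was lowest in the pools labelled IL-6KO, at 2.68 and 2.79, which goes with that label. The labels do not say whether its probes lie in the deleted part, so Il6 may check nothing. Nor do they say whether the transgene is mouse or human IL-17C, so the Il17c row may not read it. The mean of the 4 stress keratins Krt6a, Krt6b, Krt16 and Krt17, known for psoriasis-like epidermis, was 7.57 and 8.64 in the pools labelled IL-17C+KO involved, against 10.43 and 10.25 in those labelled IL-17C+KO uninvolved. Groups are therefore named below as their labels name them, and each direction below is between labels.

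All 9 hair shaft keratins were lowest in the same pair of labelled groups. IL-17C+KO involved and WT held the lowest 2 places of the 6 groups for 9 of 9 genes. IL-17C+ uninvolved was among the highest 2 for 9 and IL-6KO for 8, with Krt82 the exception.

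Krt33a, a cortex keratin, stood at 6.34 and 7.43 (log2 level at 10 weeks, then 14 weeks) in IL-17C+KO involved, 8.92 and 9.02 in IL-17C+KO uninvolved skin, 9.18 and 8.46 in IL-17C+ involved, 9.26 and 10.26 in IL-17C+ uninvolved, 9.86 and 10.28 in IL-6KO, and 6.82 and 7.43 in WT. Its 8 arrays of the other labelled groups all lay above the 4 arrays of IL-17C+KO involved and WT. Krt34, also of the cortex, stood at 5.71 and 7.43 in IL-17C+KO involved, 8.62 and 8.71 in IL-17C+KO uninvolved skin, 8.23 and 7.84 in IL-17C+ involved, 8.43 and 10.19 in IL-17C+ uninvolved, 9.24 and 9.15 in IL-6KO, and 6.50 and 6.64 in WT. The same 4 arrays were lowest, and the single highest was IL-17C+ uninvolved at 14 weeks.

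Krt31, of the cortex as well, stood at 3.45 and 4.26 in IL-17C+KO involved, 5.76 and 5.76 in IL-17C+KO uninvolved skin, 6.37 and 5.25 in IL-17C+ involved, 5.82 and 6.99 in IL-17C+ uninvolved, 6.66 and 6.85 in IL-6KO, and 4.23 and 4.81 in WT. It was below the array median in both IL-17C+KO involved pools and in WT at 10 weeks. Krt33b, whose sequence is close to that of Krt33a, stood at 4.01 and 5.11 in IL-17C+KO involved, 6.63 and 6.02 in IL-17C+KO uninvolved skin, 6.51 and 5.75 in IL-17C+ involved, 6.29 and 8.20 in IL-17C+ uninvolved, 7.28 and 7.15 in IL-6KO, and 4.60 and 4.43 in WT. It was below the array median in both WT pools and in IL-17C+KO involved at 10 weeks.

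Among the type II partners, Krt86 of the cortex stood at 3.83 and 5.89 in IL-17C+KO involved, 7.80 and 7.70 in IL-17C+KO uninvolved skin, 7.50 and 7.28 in IL-17C+ involved, 7.34 and 9.43 in IL-17C+ uninvolved, 8.19 and 8.17 in IL-6KO, and 5.21 and 5.20 in WT. The WT pools and the IL-6KO pools each differed little between ages, while the IL-17C+KO involved pools lay 2.07 apart and the IL-17C+ uninvolved pools 2.09. Krt81, likewise of the cortex, stood at 4.95 and 5.80 in IL-17C+KO involved, 7.24 and 7.37 in IL-17C+KO uninvolved skin, 7.31 and 6.93 in IL-17C+ involved, 7.34 and 8.96 in IL-17C+ uninvolved, 7.94 and 7.93 in IL-6KO, and 6.19 and 5.62 in WT. Its IL-17C+KO involved and WT pools overlapped, and the other 8 arrays lay above both. Probes for Krt81, Krt83, Krt86 and Krt87, and for Krt33a and Krt33b, may read more than 1 of these closely related genes, so values within each set are uncertain as values of single genes.

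The cuticle keratins had smaller ranges. Krt32 stood at 4.94 and 5.38 in IL-17C+KO involved, 5.72 and 5.78 in IL-17C+KO uninvolved skin, 6.33 and 5.68 in IL-17C+ involved, 5.56 and 6.60 in IL-17C+ uninvolved, 6.37 and 6.45 in IL-6KO, and 5.00 and 5.37 in WT. Krt82 stood at 4.64 and 4.92 in IL-17C+KO involved, 5.69 and 6.05 in IL-17C+KO uninvolved skin, 6.49 and 5.41 in IL-17C+ involved, 5.84 and 6.23 in IL-17C+ uninvolved, 5.53 and 6.24 in IL-6KO, and 5.17 and 4.83 in WT. For both genes the 8 arrays of the other labelled groups lay above those of IL-17C+KO involved and WT.

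Krt35, the early shaft keratin, departed from this order. It stood at 4.72 and 5.50 in IL-17C+KO involved, 6.42 and 6.32 in IL-17C+KO uninvolved skin, 7.16 and 5.74 in IL-17C+ involved, 5.87 and 7.86 in IL-17C+ uninvolved, 7.12 and 6.78 in IL-6KO, and 5.94 and 6.33 in WT. Its WT pools overlapped with those of IL-17C+KO uninvolved and lay above both IL-17C+KO involved pools.

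**Figure D1:**
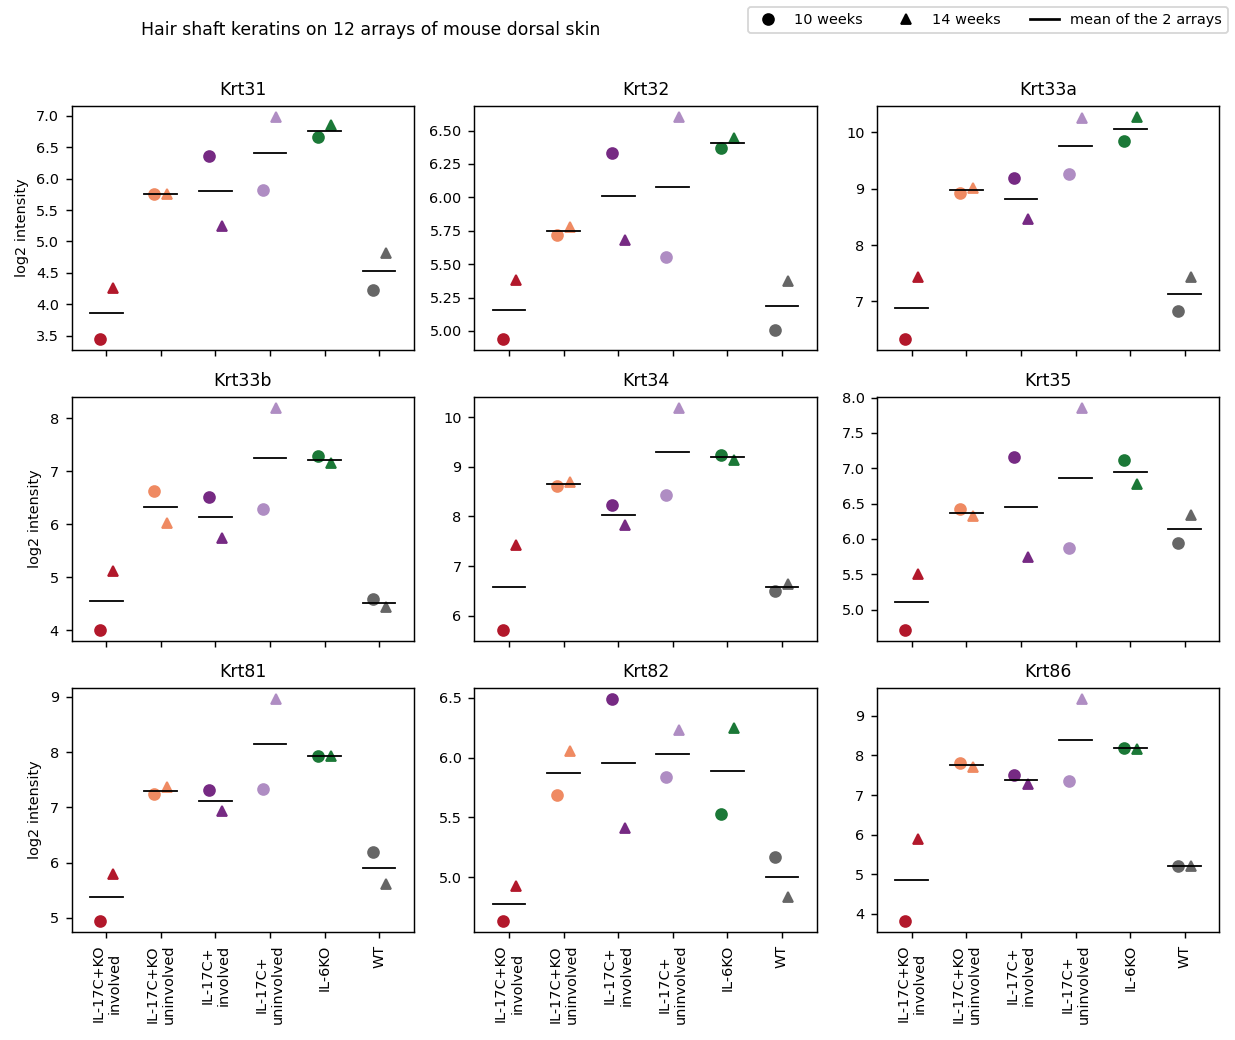
Log2 level of each of the 9 hair shaft keratins (1 panel per gene) on the 12 arrays, by labelled group. Circles are 10 weeks, triangles 14 weeks and lines the mean of the 2 arrays, and each panel has its own scale. The arrays of IL-17C+KO involved and WT lie lowest for all genes but Krt35, where only IL-17C+KO involved stands apart from the rest.

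Neighbouring groups in these orders often could not be told apart. The highest 2 groups overlapped for 9 of 9 genes and the lowest 2 for 8 of 9, with Krt35 the exception. Counting groups from the highest mean, the arrays of groups 4 and 5 did not overlap for 8 of 9 genes. Those of groups 2 and 3 did not overlap for 5 of 9 (Krt33a, Krt33b, Krt34, Krt81 and Krt86), and those of groups 3 and 4 for Krt34 and Krt86 only. The groups were ordered by each gene's own means, which favours gaps between neighbours. The share over all genes was not counted for such orders, so these counts are a description only.

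The genes varied together across the 12 arrays. Over their 36 pairs, Pearson's r ran between 0.744 (Krt35 with Krt82) and 0.986 (Krt34 with Krt86), with a median of 0.914. The genes of a pair share their pools and arrays, so r is given as a description. Of all other genes, the 10 whose log2 level was most like the mean of the 9 keratins, over 12 arrays, were Krtap14 (r = 0.987), Krtap4-1, Gm11562, Krtap21-1, Krtap1-5, Gm10229, Krtap4-6, Krtap6-2, Krt83 and Krtap3-1 (r = 0.972). Krtap genes encode the keratin-associated proteins that cross-link the filaments, and Krt83 is a further type II hair keratin.

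Hair shaft keratins were higher in the pools labelled IL-6KO than in those labelled WT, 2 groups with no transgene by their labels. Of the 9, 5 rose and 0 fell at an adjusted p under 0.05 (limma, Benjamini-Hochberg over 22180 genes), where 0.455% of all genes changed and 0.361% rose. Krt86 rose 7.87-fold (log2 difference 2.98 ± 0.54 SE, adjusted p = 0.0376) and Krt33a rose 7.69-fold (2.94 ± 0.37, adjusted p = 0.00836). Krt33b rose 6.51-fold (2.70 ± 0.51, adjusted p = 0.0414), Krt34 rose 6.16-fold (2.62 ± 0.48, adjusted p = 0.0376) and Krt31 rose 4.71-fold (2.24 ± 0.41, adjusted p = 0.0376). Of the 5, 4 were of the type I cortex list, which with Krt35 makes up 5 of the 9 measured. Krt81 had a difference of 2.03 ± 0.43 (adjusted p = 0.0666), Krt32 of 1.22, Krt82 of 0.89 and Krt35 of 0.82, which did not pass. Both IL-6KO arrays lay above both WT arrays for 9 of 9 genes, as they did for 11.7% of all genes. The median difference of the 9 was 2.24, beside -0.0082 over all genes.

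These pools differed in more than hair keratins. Il17c, as given above, was also higher in the pools labelled IL-6KO, so the direction is one between labels. The mean of the 10 skeletal muscle genes was 9.34 and 8.31 in IL-6KO, against 10.19 and 10.88 in WT. The 14-week IL-6KO mean holds a low Myh4, at 4.79, against 10.68 at 10 weeks. Of this muscle list, 2 of 10 genes fell by limma, and 0 of the 10 differences were positive. The summed intensity of that list was 9639 and 5942 in IL-6KO, against 14460 and 23085 in WT, and 0 of its genes were below the array median on any array. Of the follicle stem cell and outer root sheath genes, 3 of 7 fell, among them Krt15 (-2.35) and Cd34 (-1.52), and the collagens Col1a1 (-2.21) and Col3a1 (-2.16) fell too. The part of these genes in the keratin result was not tested. In pooled skin, a difference in the number of follicles in the growth phase and one in keratin RNA per follicle cannot be told apart. The count was 0 without either IL-6KO array or without WT at 10 weeks, 1 without WT at 14 weeks, and 3 without either IL-17C+KO uninvolved array. It was 5 without the 4 IL-17C+KO arrays, 1 without age as a block, 1 without the intensity trend, and 2 after quantile normalization.

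The pools labelled IL-17C+ were compared with those labelled WT in both areas of skin, and these comparisons share the WT arrays with the one above. In IL-17C+ uninvolved skin, Krt33a rose 6.22-fold (2.64 ± 0.37, adjusted p = 0.0251) and the other 8 did not pass, where 0.0541% of all genes changed, all of them higher. The differences of Krt86 (3.19 ± 0.54, adjusted p = 0.067), Krt34 (2.74), Krt33b (2.73), Krt81 (2.24), Krt31 (1.88), Krt82 (1.03), Krt32 (0.89) and Krt35 (0.73) were positive too. Both arrays lay above both WT arrays for 8 of 9 genes, as for 14.9% of all genes, with Krt35 overlapping. The muscle mean was 10.77 and 10.42 in IL-17C+ uninvolved, against 10.19 and 10.88 in WT, and Il17c was no higher there than in WT, as given above. The count of 1 was 0 without IL-17C+ uninvolved at 14 weeks, WT at 10 weeks or either IL-6KO array, 2 without either IL-17C+ involved array, 3 without either IL-17C+KO involved array, and 5 without IL-17C+ uninvolved at 10 weeks. It was 3 without the 4 IL-17C+KO arrays and 0 without the 2 IL-6KO arrays, without age as a block, without the trend, or after quantile normalization.

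In IL-17C+ involved skin, Krt33a rose 3.25-fold (1.70 ± 0.37, adjusted p = 0.0395), and it was the only one of the 9 to pass, where 1.8% of all genes changed and 1.1% rose. Krt86 had a difference of 2.19 ± 0.54 (adjusted p = 0.0652), and the other 7 had differences between 0.31 (Krt35) and 1.62 (Krt33b). Both arrays lay above both WT arrays for 8 of 9 genes, as for 20.4% of all genes. The muscle mean was 8.19 and 7.88 in IL-17C+ involved, against 10.19 and 10.88 in WT, and the stress keratin mean was 10.74 and 10.74, against 7.03 and 6.22. Of 7 melanocyte markers 3 rose, Dct (1.75), Tyrp1 (1.55) and Slc45a2 (0.99), with a list mean of 5.90 and 5.62 in IL-17C+ involved, against 4.64 and 5.11 in WT. Of 7 follicle stem cell and outer root sheath genes 3 fell, Krt15 (-3.13), Fgf18 (-1.85) and Cd34 (-1.59). The part of these lists in the keratin result was not tested. The count of 1 was 0 without IL-17C+ involved at 10 weeks, either IL-17C+KO uninvolved array, either IL-6KO array or either WT array. It was 2 without IL-17C+ involved at 14 weeks or either IL-17C+KO involved array, and 3 without either IL-17C+ uninvolved array. It was 0 without age as a block or without both IL-6KO arrays, and 2 with dim genes left out. Without IL-17C+ involved at 10 weeks, the difference of Krt33a was 1.02 with an adjusted p of 0.481, and it was 2.38 without IL-17C+ involved at 14 weeks. Its adjusted p over 19 alternatives lay between 0.0254 and 0.481.

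Among the groups labelled as lacking IL-6, hair shaft keratins were lower in the pools labelled IL-17C+KO involved than in those labelled IL-6KO. The IL-6KO arrays are shared with the comparison against WT above, so the rise there and the fall here are not independent. Of the 9, 4 fell and 0 rose, where 0.171% of all genes changed, all of them lower. Krt86 was 9.99-fold lower (-3.32 ± 0.54, adjusted p = 0.0318) and Krt33a 9.09-fold lower (-3.18 ± 0.37, adjusted p = 0.00868). Krt31 was 7.47-fold lower (-2.90 ± 0.41, adjusted p = 0.0173) and Krt81 5.91-fold lower (-2.56 ± 0.43, adjusted p = 0.0325), so the calls held type I and type II cortex keratins alike. The differences of Krt33b (-2.66, adjusted p = 0.0787), Krt34 (-2.62, adjusted p = 0.0579), Krt35 (-1.84), Krt32 (-1.25) and Krt82 (-1.11) did not pass. Both IL-17C+KO involved arrays lay below both IL-6KO arrays for 9 of 9 genes, as for 11.8% of all genes, and the median difference was -2.62, beside 0.032 over all genes.

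The muscle mean was 10.39 and 9.01 in IL-17C+KO involved, against 9.34 and 8.31 in IL-6KO, and the melanocyte mean was 4.66 and 5.32, against 5.61 and 5.41. The 14-week IL-6KO muscle mean holds the low Myh4 value given above. The stress keratin mean was 7.57 and 8.64 in IL-17C+KO involved, against 7.59 and 8.79 in IL-6KO, and Il17c was 5.32 and 5.62, against 6.30 and 6.17. The part of these in the result was not tested. The difference of Krt86 was -2.46 without IL-17C+KO involved at 10 weeks and -4.18 without it at 14 weeks. The count of 4 was 0 without IL-17C+KO involved at 10 weeks or either IL-6KO array. It was 2 without age as a block, without the trend, or after quantile normalization.

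In the pools labelled IL-17C+KO uninvolved, 0 of 9 passed against IL-6KO by limma and 2 had an unadjusted p under 0.05 (Krt31 and Krt33a), where 0.397% of all genes changed. The differences ran between -1.10 (Krt33a) and -0.014 (Krt82).

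**Figure D2:**
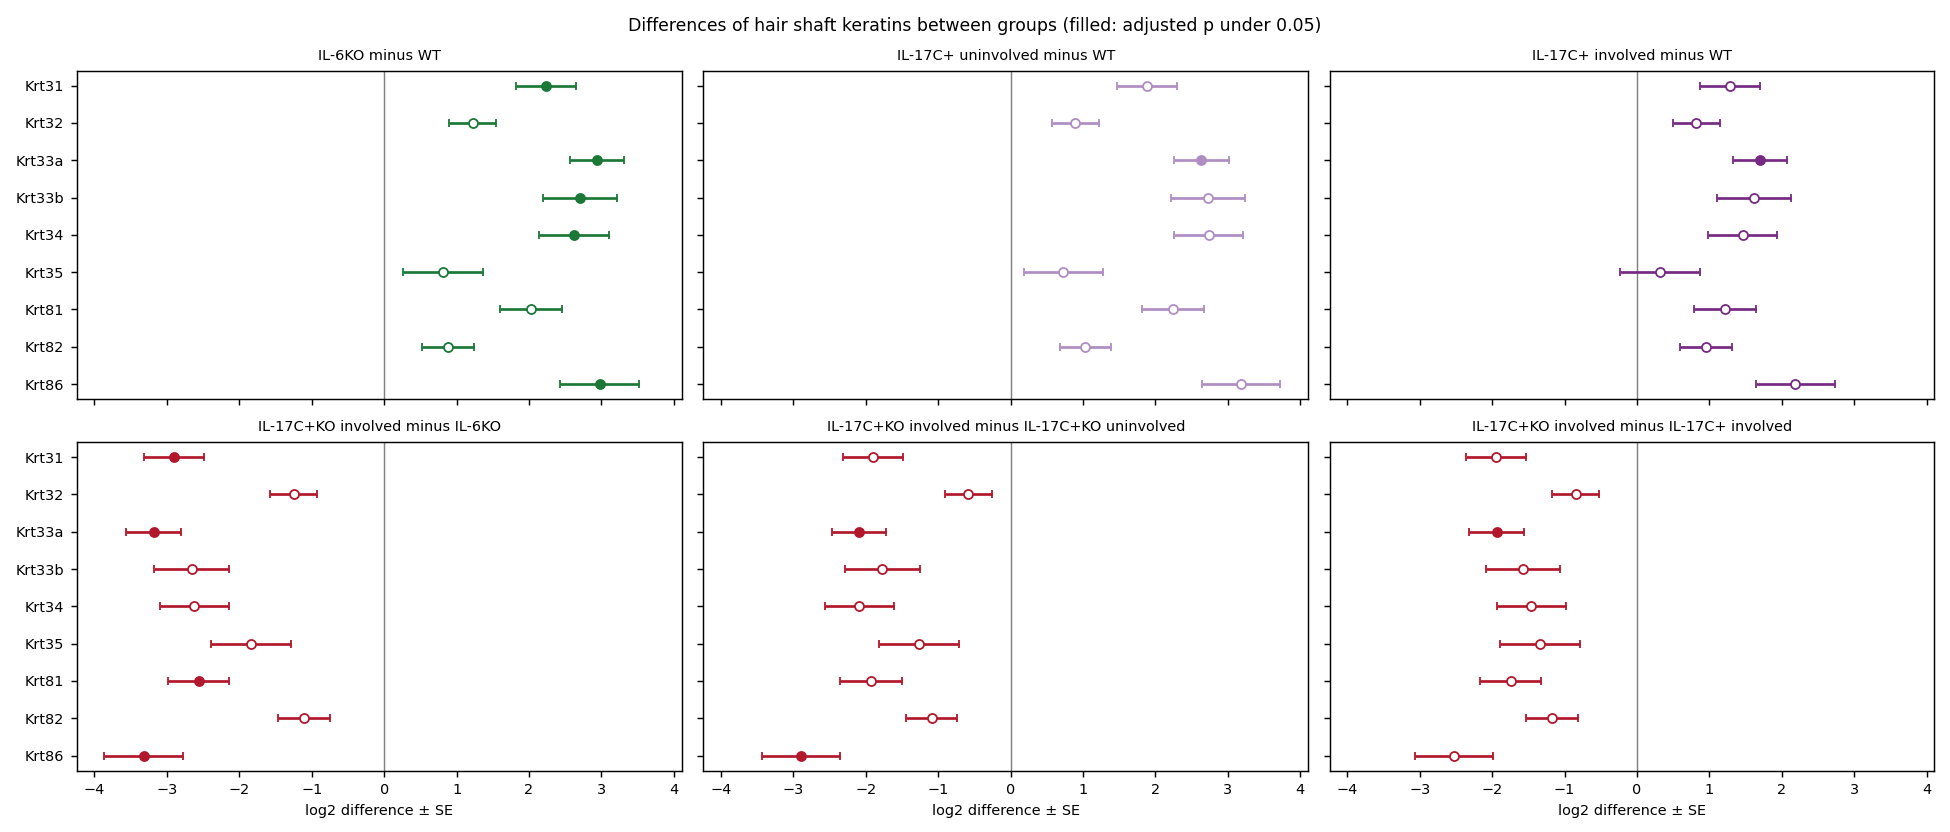
Log2 differences of the 9 hair shaft keratins, with standard errors, in 6 group comparisons, filled where the adjusted p is under 0.05. The IL-6KO pools against WT are all above 0, between 0.82 and 2.98, and the IL-17C+KO involved pools against IL-6KO all below 0, between -3.32 and -1.11.

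The difference between involved transgenic skin and its control depended on the IL-6 label. This was tested as the IL-17C+KO involved minus IL-6KO difference, less the IL-17C+ involved minus WT difference. It passed for 7 of the 9, negative in each, where 1.31% of all genes passed and 0.834% were negative. Krt86 had an interaction of -5.51 ± 0.77 (log2, adjusted p = 0.00497), Krt33a of -4.88 ± 0.53 (adjusted p = 0.00212) and Krt33b of -4.27 ± 0.73 (adjusted p = 0.0134). Each is a negative difference less a positive one: for Krt86, -3.32 against IL-6KO less 2.19 against WT. Each is also the IL-17C+KO involved minus IL-17C+ involved difference less the IL-6KO minus WT difference: for Krt86, -2.53 less 2.98. The interaction is therefore not separate from the result of IL-6KO against WT. Krt31 had -4.19 ± 0.58 (adjusted p = 0.00497), Krt34 had -4.08 ± 0.68 (adjusted p = 0.0118) and Krt81 had -3.78 ± 0.60 (adjusted p = 0.0104). The cuticle keratin Krt32 passed with a smaller value, -2.07 ± 0.46 (adjusted p = 0.0487). Krt35 (-2.16 ± 0.78, adjusted p = 0.301) and Krt82 (-2.06 ± 0.51, adjusted p = 0.0782) did not pass.

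Krt31, Krt33a and Krt86 passed this interaction in 17 of 17 alternatives, and Krt32 in 5 of 17, with adjusted p-values between 0.0233 and 0.276. Without IL-17C+ involved at 10 weeks and at 14 weeks in turn, Krt31 had -3.35 and -5.02, Krt33a -4.20 and -5.57, and Krt33b -3.68 and -4.87. Without IL-17C+KO involved at those ages, Krt34 had -3.37 and -4.79, and Krt86 -4.65 and -6.36. The count of 7 was 3 without IL-17C+ involved at 10 weeks, IL-17C+KO involved at 10 weeks or WT at 14 weeks, and 4 without IL-6KO at 10 weeks. The IL-6KO and the IL-17C+KO arrays that this interaction needs hold values that seemed to go against their labels, beside others that did not. The interaction has no value without these arrays. In the same interaction 8 of 10 muscle genes passed, all positive, with a median of 3.21, and 3 of 4 stress keratins passed, all negative. Il17c itself had -2.17 ± 0.42 (adjusted p = 0.0258). Their part in the keratin result was not tested.

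**Figure D3:**
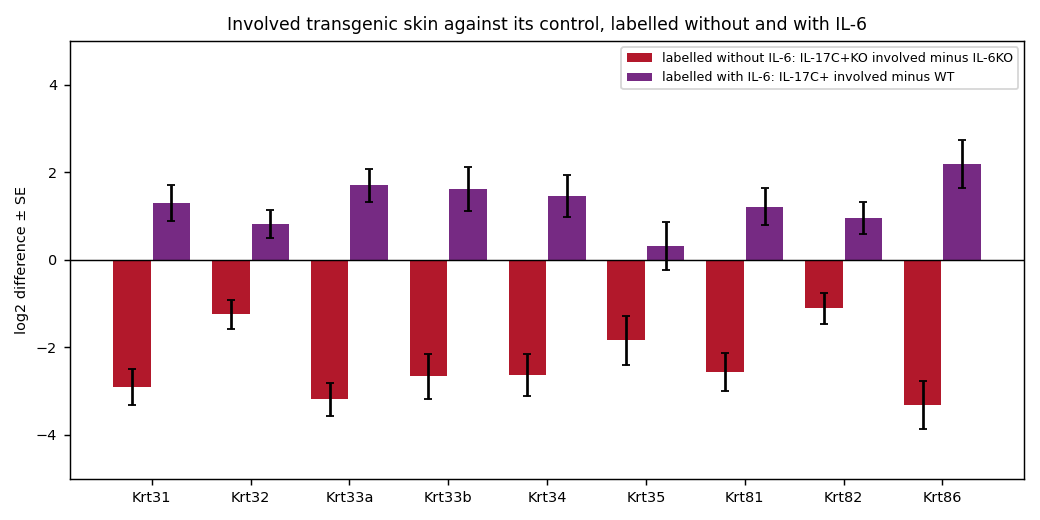
Log2 difference (± SE) of involved transgenic skin from its control for each of the 9 hair shaft keratins, for groups labelled as lacking IL-6 (IL-17C+KO involved minus IL-6KO) and as having it (IL-17C+ involved minus WT). All bars against IL-6KO point down and all against WT point up, with Krt86 at the extremes, -3.32 against IL-6KO and 2.19 against WT.

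In uninvolved skin, the same interaction passed for 1 of 9, Krt33a (-3.73 ± 0.53, adjusted p = 0.0136), where 0.153% of all genes passed and 0.0676% were negative. The values of the others ran between -3.61 (Krt86) and -1.05 (Krt82). The count of 1 was 0 without IL-17C+ uninvolved at 14 weeks, IL-17C+KO uninvolved at 14 weeks, either IL-6KO array or WT at 10 weeks. It was 2 without either IL-17C+ involved array or IL-17C+KO involved at 14 weeks, and 6 without IL-17C+ uninvolved at 10 weeks.

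Involved and uninvolved areas were then compared within each transgenic genotype. In the pools labelled IL-17C+KO, 2 of 9 fell in involved skin, where 0.505% of all genes changed and 0.478% fell. Krt86 was lower by 2.89 on the log2 scale (difference -2.89 ± 0.54, adjusted p = 0.0369) and Krt33a by 2.09 (difference -2.09 ± 0.37, adjusted p = 0.03). Both IL-17C+KO involved arrays lay below both uninvolved arrays for 9 of 9 genes, as for 17.6% of all genes, and the other 7 differences lay between -2.09 (Krt34) and -0.59 (Krt32). The stress keratins of these pools run against the labels of the areas, as given above, so involved here means the label only. The muscle mean was 10.39 and 9.01 in IL-17C+KO involved, against 8.56 and 9.05 in IL-17C+KO uninvolved. The difference of Krt86 was -2.03 without IL-17C+KO involved at 10 weeks and -3.75 without it at 14 weeks. The count of 2 was 0 without IL-17C+KO involved at 10 weeks or either IL-17C+KO uninvolved array, 1 without either IL-6KO array and without both, and 5 without either IL-17C+ uninvolved array. It was 0 without age as a block and 1 without the trend or after quantile normalization.

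In the pools labelled IL-17C+, 0 of 9 passed between involved and uninvolved skin by limma and 4 had an unadjusted p under 0.05, where 1.61% of all genes changed. The differences ran between -1.28 (Krt34) and -0.073 (Krt32). The difference between the genotypes in this contrast passed for 0 of 9 by limma, with 3 at an unadjusted p under 0.05 and values between -1.89 (Krt86) and -0.51 (Krt32), where 2.58% of all genes passed.

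The pools labelled IL-17C+KO were compared with those labelled IL-17C+ last. Il17c and Il6 in these pools seem to go against some of the labels, with the limits given above. In involved skin, Krt33a fell (difference -1.94 ± 0.37, adjusted p = 0.0372) in IL-17C+KO against IL-17C+, and the other 8 did not pass, where 0.649% of all genes changed and 0.419% fell. Both IL-17C+KO involved arrays lay below both IL-17C+ involved arrays for 9 of 9 genes, as for 21.4% of all genes, with differences between -2.53 (Krt86) and -0.85 (Krt32). The stress keratin mean was 7.57 and 8.64 in IL-17C+KO involved, against 10.74 and 10.74 in IL-17C+ involved, and the muscle mean was 10.39 and 9.01, against 8.19 and 7.88. The part of these in the result was not tested. The count of 1 was 0 without either 10-week array of this contrast, either IL-17C+KO uninvolved array or either IL-6KO array, 2 without either 14-week array of this contrast, and 4 without either IL-17C+ uninvolved array. It was 0 without age as a block or without both IL-6KO arrays, and 3 with dim genes left out. Without IL-17C+ involved at 10 weeks, the difference of Krt33a was -1.26 with an adjusted p of 0.389, and without that group at 14 weeks it was -2.62. Its adjusted p over 18 alternatives lay between 0.0196 and 0.570.

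In uninvolved skin, 0 of 9 passed in IL-17C+KO against IL-17C+ by limma and 0 had an unadjusted p under 0.05, where 0.712% of all genes changed. The differences ran between -0.92 (Krt33b) and -0.16 (Krt82).

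Age gave no call. Between 14 and 10 weeks, 0 of 9 hair shaft keratins passed by limma and 0 had an unadjusted p under 0.05, with differences between 0.056 (Krt82) and 0.63 (Krt86), where 0% of all genes passed and 1856 had an unadjusted p under 0.05. The ages differed in direction between labelled groups. In IL-17C+ uninvolved, all 9 were higher at 14 weeks, by 0.39 (Krt82) to 2.09 (Krt86), and in IL-17C+KO involved all 9 were higher, by 0.29 (Krt82) to 2.07 (Krt86). In IL-17C+ involved all 9 were lower at 14 weeks, with differences between -1.41 (Krt35) and -0.22 (Krt86). In IL-17C+KO uninvolved they ran between -0.61 (Krt33b) and 0.36 (Krt82). With 1 pool per age, these differences within a group have no test. The age by IL-6 interaction passed for 0 of 9 by limma, with 1 at an unadjusted p under 0.05, where 0% of all genes passed and 655 had an unadjusted p under 0.05.

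Other genes of the hair shaft were counted in the same comparisons. Of 10 other shaft and inner root sheath proteins, 3 rose in IL-6KO against WT: the keratin-associated protein Krtap3-1 (3.49 ± 0.43, adjusted p = 0.00719), the shaft receptor Gprc5d (2.78 ± 0.45, adjusted p = 0.0231) and Lrrc15 (2.36 ± 0.42, adjusted p = 0.0341). Krtap3-1 stood at 4.61 and 5.34 in IL-17C+KO involved, 7.77 and 7.49 in IL-17C+KO uninvolved skin, 7.98 and 7.34 in IL-17C+ involved, 7.72 and 9.15 in IL-17C+ uninvolved, 8.72 and 8.69 in IL-6KO, and 4.63 and 5.79 in WT. The same 4 arrays as for the keratins were lowest. In IL-17C+KO involved against IL-6KO, 5 of the 10 fell, led by Krtap8-1 (-5.45 ± 0.88, adjusted p = 0.0314), Krtap3-1 (-3.73) and Krtap11-1 (-3.49). In the interaction in involved skin, 9 of the 10 passed, all negative, among them Krtap8-1 (-8.26), Krtap3-1 (-6.17) and trichohyalin, Tchh (-5.98), which fills the inner root sheath and medulla. The IL-17C+KO involved pools lay far apart for 2 of these genes. Krtap8-1 stood at 2.97 and 7.17 there, against 5.53 and 7.23 in WT, and Tchh at 4.97 and 9.64, against 8.81 and 9.86. Genes other than the 9 keratins were not followed when 1 array was left out.

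Of 6 other hair keratins, Krt83 alone rose in IL-6KO against WT (2.03 ± 0.36, adjusted p = 0.0347), 0 passed in IL-17C+KO involved against IL-6KO (5 at an unadjusted p under 0.05), and Krt83 (-3.24) and Krt87 (-4.04) passed in the interaction. The 9 keratins of the inner root sheath and companion layer, which surround and guide the growing shaft, had 0 calls by limma in both of these group comparisons, with 7 and 8 at an unadjusted p under 0.05 and medians of 2.25 and -3.59. In the interaction 5 of them passed, all negative, led by Krt71 (-5.62), Krt72 (-4.58) and Krt26 (-4.50). Here too the IL-17C+KO involved pools lay far apart, with Krt71 at 3.86 and 7.95, against 7.07 and 8.32 in WT.

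Genes that act before the shaft hardens were counted too. The 9 matrix and shaft regulators, among them Hoxc13, Foxn1 and Lef1, which drive hair keratin genes, had 0 calls by limma in IL-6KO against WT, in IL-17C+KO involved against IL-6KO and in the interaction in involved skin, each with 3 at an unadjusted p under 0.05. Their median differences were 0.32, -0.38 and -0.63, and 7, 0 and 2 of the 9 differences were positive. Hoxc13 had 0.59, -0.95 and -0.92, and Foxn1 had 0.82, -0.83 and -1.12, which lie at or towards the ends of the list. The list ran between -0.35 and 0.82, between -0.95 and -0.0080, and between -1.12 and 0.78 in these comparisons. The part of the regulators in the keratin result was not tested. The 7 follicle stem cell and outer root sheath genes had 0 calls in IL-17C+KO involved against IL-6KO (1 at an unadjusted p under 0.05) and 3 in the interaction, all positive: Krt15 (3.61), Fgf18 (2.17) and Cd34 (2.09).

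**Figure D4:**
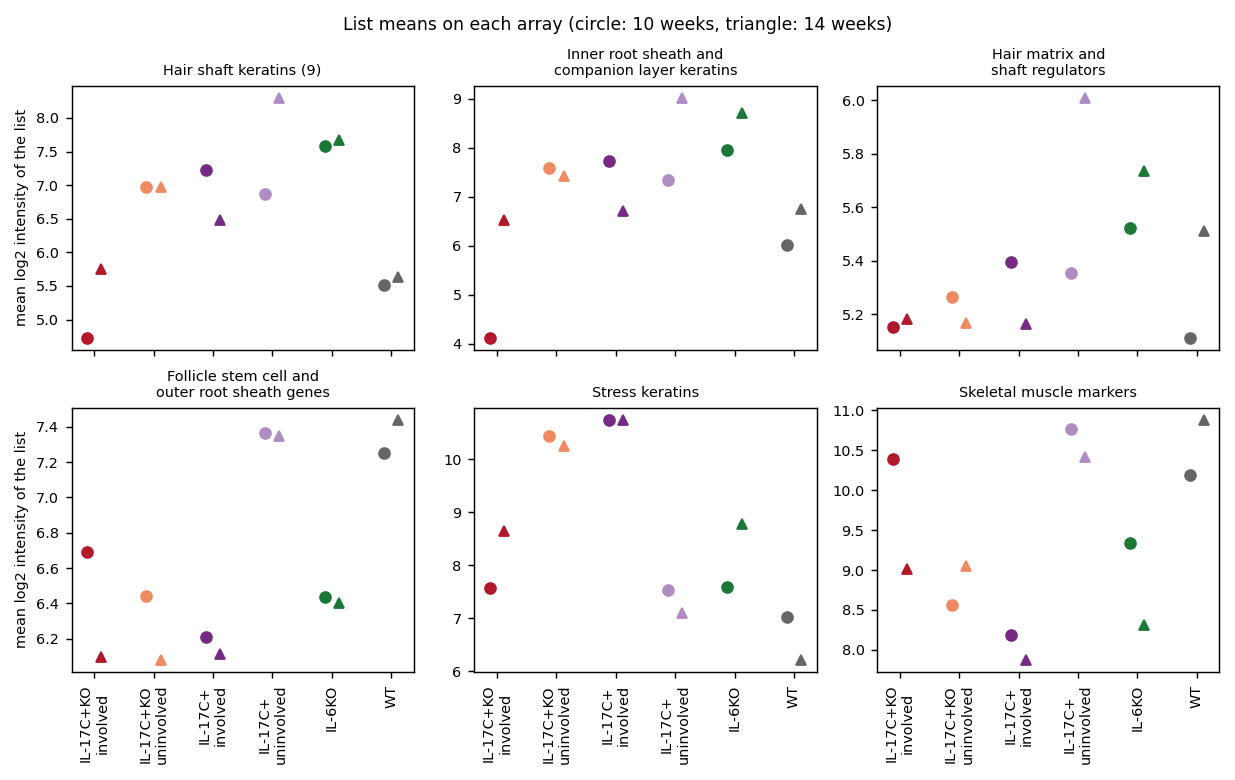
Mean log2 level of the 9 hair shaft keratins and of other gene lists on each of the 12 arrays, by labelled group, with circles for 10 weeks and triangles for 14 weeks and a scale of its own in each panel. The hair shaft keratin mean is lowest in the IL-17C+KO involved and WT pools, between 4.73 and 5.75, and lies between 6.48 and 8.30 in the other 8.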

How the data were processed

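Expression was measured on arrays of 12 pools of mouse dorsal skin (6 labelled groups, 1 pool at 10 and 1 at 14 weeks in each, 58 mice in all). The authors deposited linear intensity values from RMA in Affymetrix Expression Console, per the submitters' processing notes (no versions named). RMA corrects background, normalizes between arrays and gives 1 value per transcript cluster, which evens out array-wide differences. The intensities ran between 2.5 and 18385 and were turned to log2 here. The number of arrays limits the precision.

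Of 41345 rows, 23521 name 1 gene, 1814 several and 16010 none. Rows naming 1 gene were used, and the row with the highest mean stood for each of the 1082 genes with more than 1, leaving 22180 genes. Each of the 9 keratins had 1 row. Tests used limma 3.58.1 in R 4.3.3 (lmFit, eBayes with intensity trend), with group and age as terms over all 12 arrays (5 residual and 7.65 prior degrees of freedom). Age by IL-6 had a separate fit with 4 residual degrees of freedom. P-values are two-sided, adjusted by Benjamini-Hochberg over 22180 genes in each of 14 comparisons, with a threshold of 0.05. The fit was tested on simulated data with known shifts in the IL-6KO group, independent noise on each array and no age effect. That test therefore says nothing on age as a block.

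Age is the replicate number and the labels make it a shared time point, so it entered as a block. The age differences of the groups correlated between -0.21 and 0.52 over 15 pairs of groups (median 0.07).

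All 10 listed keratins were to be named. From each list of other genes, up to 3 that passed were named, with the 10 genes most like the keratins. The members and lists were chosen with earlier results of these data known. Alternatives were no age block, no trend, a filter on dim genes (2 or more arrays over their own median), quantile normalization, the mean of all rows, and leaving out each array. Leaving out the 4 IL-17C+KO arrays and the 2 IL-6KO arrays was added after seeing the data. RefSeq promoters were searched in the 250 bases before the start.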

Additional observations from a re-analysis of the deposited data

Results flagged for a closer look

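Of the hair shaft keratins, 7 stood out because the difference between involved transgenic skin and its control changed with the IL-6 label, by a test of that difference itself (limma, adjusted p under 0.05). Over all genes, 1.31% passed this test and 0.834% were negative. The log2 interactions, IL-17C+KO involved minus IL-6KO less IL-17C+ involved minus WT, were -5.51 for Krt86, -4.88 for Krt33a, -4.27 for Krt33b, -4.19 for Krt31, -4.08 for Krt34, -3.78 for Krt81 and -2.07 for Krt32. Krt32 lay close to the threshold by limma (adjusted p = 0.0487). In uninvolved skin the same test singled out Krt33a, at -3.73, where 0.153% of all genes passed and 0.0676% were negative. All of these values hold the IL-6KO minus WT difference given above, so they are not separate from it. These values rest on pools labelled IL-6KO, whose Il17c level was 6.30 and 6.17 at 10 and 14 weeks, against 4.67 and 4.96 in the pools labelled WT. Groups of 2 pools were too small to be searched for outlying arrays.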

How the results depend on the processing

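Counts are hair shaft keratins that passed, of 9. Without age as a replicate block, the count was 0 for IL-17C+ involved minus WT, IL-17C+ uninvolved minus WT, IL-17C+KO involved minus uninvolved and IL-17C+KO involved minus IL-17C+ involved, 1 for IL-6KO minus WT and 2 for IL-17C+KO involved minus IL-6KO. Without the trend it was 0 for IL-17C+ uninvolved minus WT, 1 for IL-17C+KO involved minus uninvolved, 1 for IL-6KO minus WT and 2 for IL-17C+KO involved minus IL-6KO; quantile normalization gave 0, 1, 2 and 2 for these 4. The filter on dim genes gave 2 for IL-17C+ involved minus WT and 3 for IL-17C+KO involved minus IL-17C+ involved. Without the 4 IL-17C+KO arrays, IL-17C+ uninvolved minus WT had 3, and without the 2 IL-6KO arrays it had 0, as did IL-17C+ involved minus WT and IL-17C+KO involved minus IL-17C+ involved, while IL-17C+KO involved minus uninvolved had 1. The causes were not tested.

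Leaving out 1 array at a time, the count ran between 0 and 3 for IL-17C+ involved minus WT, 0 and 5 for IL-17C+ uninvolved minus WT, 0 and 6 for IL-6KO minus WT and for IL-17C+KO involved minus IL-6KO, 0 and 5 for IL-17C+KO involved minus uninvolved, 0 and 4 for IL-17C+KO involved minus IL-17C+ involved, 3 and 8 for the interaction in involved skin and 0 and 6 for that in uninvolved skin. The other comparisons stayed at 0. The interaction in involved skin had 6 to 8 under the other settings run. Over all genes, calls ran between 7 and 153 for IL-6KO minus WT (101 with all arrays), 0 and 62 for IL-17C+KO involved minus IL-6KO (38) and 71 and 504 for the interaction in involved skin (290). A fit with 1 array left in a group assumes that it varies like the other groups.

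Differences that changed sign when 1 array was left out were not calls. For IL-17C+ involved minus uninvolved, the ranges were -1.43 to 0.24 (Krt31), -0.59 to 0.45 (Krt32), -1.47 to 0.64 (Krt35) and -0.76 to 0.60 (Krt82). For IL-17C+KO uninvolved minus IL-17C+ uninvolved, they were -0.83 to 0.16 (Krt32), -1.93 to 0.090 (Krt33b), -1.38 to 0.089 (Krt34), -1.55 to 0.56 (Krt35), -0.36 to 0.037 (Krt82) and -1.51 to 0.23 (Krt86). For the site by IL-6 interaction, they were -1.03 to 0.0071 (Krt32), -1.66 to 0.35 (Krt33b) and -1.90 to 0.21 (Krt35). For Krt35 they were -0.66 to 1.29 in IL-17C+ involved minus WT and -0.33 to 1.79 in IL-17C+ uninvolved minus WT. For IL-17C+KO uninvolved minus IL-6KO they were -0.41 to 0.38 (Krt82) and -0.87 to 0.011 (Krt86), and for age -0.11 to 0.42 (Krt33b), -0.13 to 0.54 (Krt35) and -0.075 to 0.28 (Krt82). The age difference of Krt82 was also -0.078 without the 4 IL-17C+KO arrays and -0.075 without the 2 IL-6KO arrays.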
